A study of Rattus norvegicus with 28 samples.

Results

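Bone morphogenetic proteins (BMPs) and activins are secreted signals of the TGF-β superfamily, and 10 genes of their pathways were followed across 8 RNA-seq libraries of rat kidney fibroblasts. The genes were taken by name from a list of the BMP ligand genes Bmp2, Bmp4 and Bmp6, the BMP antagonist gene Grem1, the activin subunit gene Inhba, the activin binder gene Fst, and the 4 inhibitor of DNA binding genes Id1, Id2, Id3 and Id4. The deposited table lists 30178 genes, and all 10 named genes were found in it. All 10 passed the filter on low values, at least 1 FPKM (a read count divided by gene length and library size) in at least 2 libraries, which 12315 genes passed.

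BMPs bind type I and type II receptor kinases that phosphorylate Smad1, Smad5 and Smad9, and the Id genes are their best known direct targets. Id proteins pair with basic helix-loop-helix (bHLH) transcription factors and keep them off DNA. Activins, dimers of inhibin β subunits, signal through their own receptors to Smad2 and Smad3, the same Smads that TGF-β uses. Gremlin 1 binds and blocks BMPs outside the cell, and follistatin does the same to activins and, less tightly, to some BMPs. In kidney fibroblasts TGF-β drives the change to matrix-producing myofibroblasts, and BMP signalling is known for opposing it.

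The series holds 28 samples of NRK-49F, an established fibroblast line from normal rat kidney, of which 8 are RNA-seq libraries in 4 groups of 2 and 20 are chromatin samples that were not analysed here. Cells were grown in 10% serum and starved in 0.2% serum for 24 h before treatment. The 4 groups comprised control cells with no treatment, cells given TGF-β1 (5 ng per uL as the labels print it) for 48 h, cells given the same TGF-β in methionine-restricted medium (MetR, 30 uM methionine against 200 uM in its control medium), and cells given the same TGF-β plus an siRNA that targets Hoxc8, a homeobox gene (siHoxc8). All 4 groups share the line and the starvation. The labels give no time for the control libraries, name no control siRNA for the RNA-seq libraries, so that transfection is part of every siHoxc8 comparison, and do not say which methionine level the control and TGF-β libraries had. Whether the 2 libraries of each group are separate cultures is not stated, and the p-values then cover only library-to-library spread, which may be technical.

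The reads recovered from the FPKM steps numbered 15131926 to 20165028 per library, and the 10 genes rested on 75 to 14466 reads each in any library. Replicates stood farthest apart in MetR, with an SD on the log2 scale of 0.307 against 0.177 to 0.223 in the other groups. In MetR, 9 of the 10 genes were higher in replicate 1, by a median of 0.60 on the log2 scale, while 41.1% of all tested genes were higher in that library. Hoxc8 was at 1.12 and 1.34 FPKM in control, 4.32 and 5.01 with TGF-β, 0.417 and 0.614 with MetR, and 0.463 and 0.0771 with siHoxc8. Acta2 (smooth muscle actin, the usual myofibroblast marker) stood at 12.5 and 11.3 FPKM in control, 527 and 550.5 with TGF-β, 47.3 and 29.2 with MetR, and 24.3 and 21.6 with siHoxc8. Of 8 fibroblast markers found in the table, 6 were above 1 FPKM in every library, Dcn reached at most 1.08 FPKM and Thy1 was listed at 0. Of 7 epithelial markers, Krt8 alone was above 1 FPKM throughout, Cdh16 ran from 0 to 2.76 FPKM, Epcam was listed at 0 and Cdh1 stayed at or below 0.105 FPKM. The epithelial sum, nearly all of it Krt8, was 646 to 686 FPKM with siHoxc8 and 194 to 255 elsewhere, so it moves with every siHoxc8 difference given here, and its part in them was not tested. No endothelial marker reached 1 FPKM. Of 5 leukocyte markers, Ptprc stayed at or below 0.0196 FPKM and Cd68 ran from 0.399 to 2.68. The leukocyte sum was 1.61 to 2.73 FPKM in control, 1.74 to 2.10 with TGF-β, 0.965 to 1.84 with MetR and 0.476 to 0.775 with siHoxc8, so it too was lowest with siHoxc8, and its part in the differences was not tested.

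Scaling matters for the background. With the values as deposited, the median gene changed by -0.19 on the log2 scale with TGF-β against control, by 0.18 with MetR against TGF-β and by 0.13 with siHoxc8 against TGF-β. The calls over all genes were 1269 raised and 3523 lowered with TGF-β, 4289 raised and 2345 lowered with MetR, and 3460 raised and 1934 lowered with siHoxc8. Median ratio rescaling, which centres the median gene near 0, gave 2350 and 2092, 3136 and 3281, and 2574 and 2743. Quantile normalization gave 2079 and 2102, 3290 and 3072, and 2723 and 2677.

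With TGF-β, Fst rose 7.64-fold, Bmp6 2.27-fold and Inhba 1.97-fold, while Grem1 fell 5.35-fold and Id4 2.07-fold. These 5 of 10 calls (limma, Benjamini-Hochberg adjusted p under 0.05) stand beside 38.9% of all tested genes called in that comparison, 10.3% raised and 28.6% lowered. With MetR under TGF-β, Grem1 rose and Id2, Id3, Id4, Bmp6, Inhba and Fst fell against TGF-β alone. That is 7 of 10, beside 53.9% of all genes, 34.8% raised and 19% lowered. With siHoxc8 under TGF-β, Bmp2 and Grem1 rose, and Id2, Id4, Bmp4, Bmp6 and Fst fell. Those 7 of 10 stand beside 43.8% of all genes, 28.1% raised and 15.7% lowered. The median log2 fold change of the 10 genes was -0.05 with TGF-β, -0.59 with MetR and -0.68 with siHoxc8, against the medians of all genes above. These comparisons share the TGF-β libraries. In bulk RNA, fewer cells of a kind and less RNA per cell cannot be told apart.

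**Figure D1:**
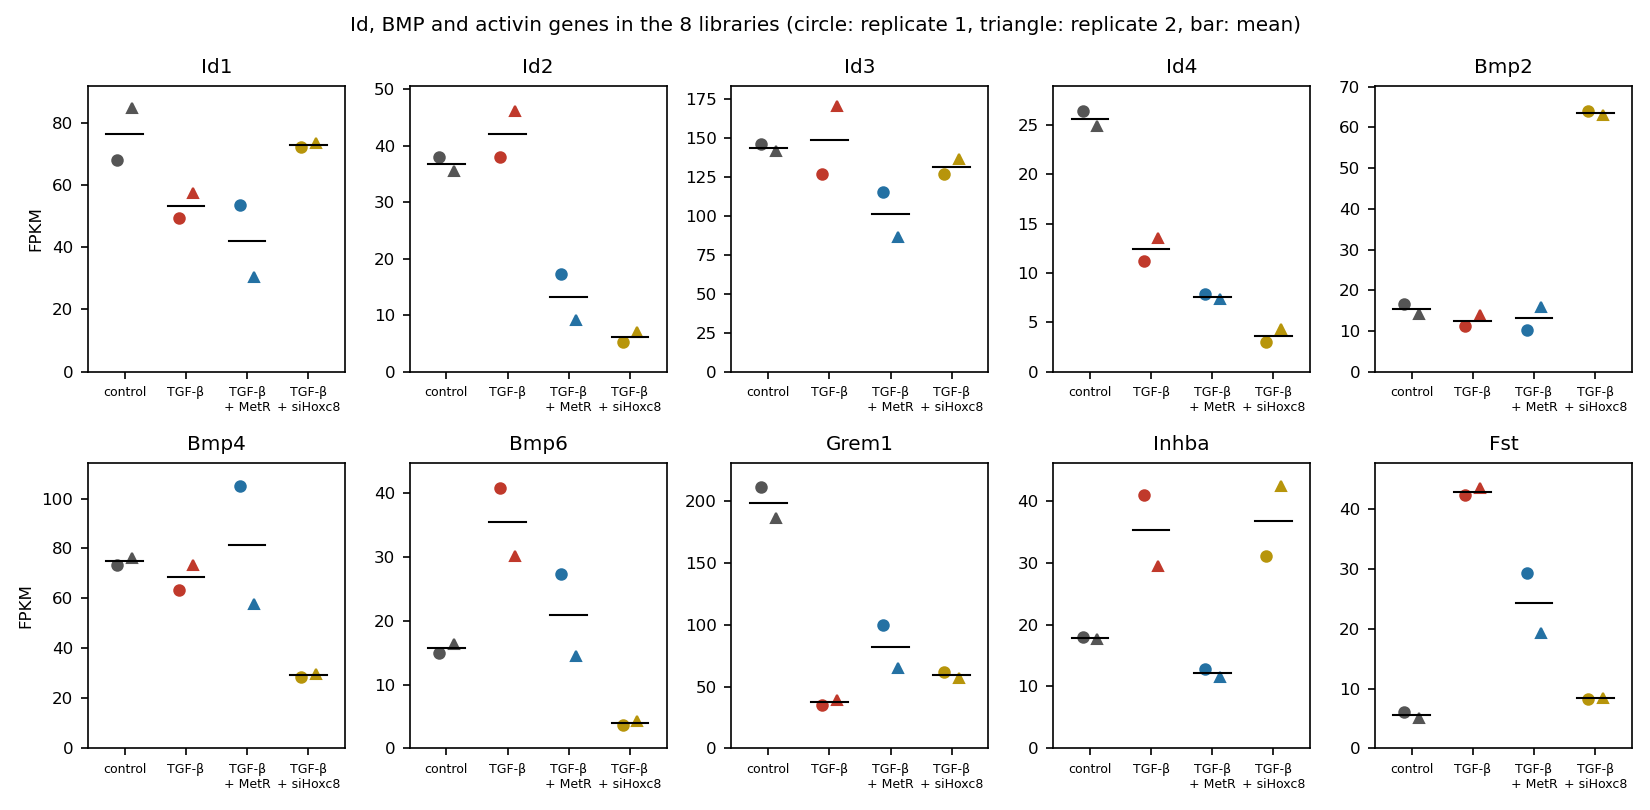
FPKM (linear axis from 0) of each of the 10 genes in the 8 libraries, by group, with circles for replicate 1, triangles for replicate 2 and a bar at the mean. Bmp2 stands at 63.1 and 64.1 FPKM with siHoxc8 against at most 16.7 in the other 6 libraries, while Fst is above 19 FPKM only with TGF-β and with MetR.

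**Figure D2:**
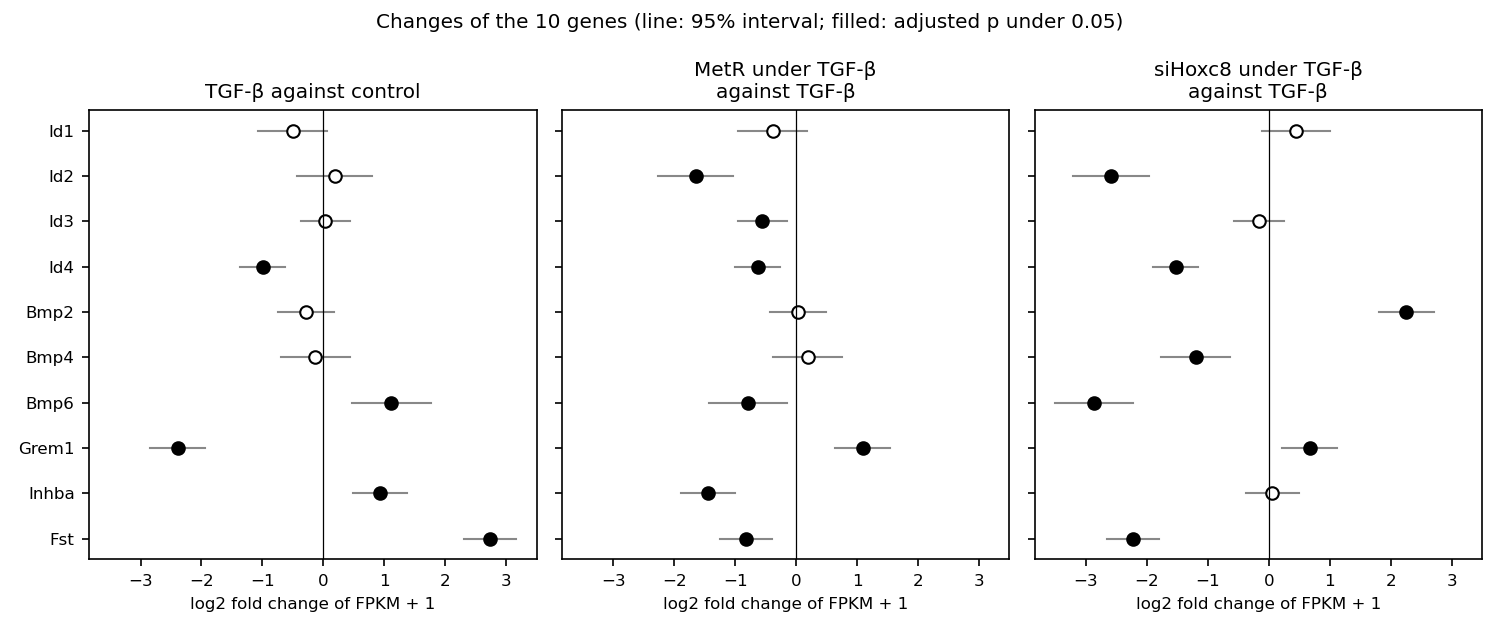
Log2 fold change of FPKM + 1 for the 10 genes in the 3 comparisons, with lines for the 95% interval and filled points where the limma adjusted p is under 0.05. Id2 lies at 0.18 with TGF-β, -1.65 with MetR and -2.59 with siHoxc8, and Grem1 at -2.39, 1.10 and 0.67.

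The BMP ligands moved in different directions. Bmp2, a ligand that drives bone and cartilage formation, was at 16.7 and 14.3 FPKM in control, 11.3 and 13.8 with TGF-β, 10.3 and 16.0 with MetR, and 64.1 and 63.1 with siHoxc8. Both siHoxc8 libraries were above all others, and the remaining groups were close to or over each other. Against TGF-β alone, Bmp2 rose 5.07-fold with siHoxc8, a log2 fold change of 2.26 ± 0.20 (SE, 2 libraries a group, limma adjusted p = 0.000169). Against control it rose 4.10-fold (1.97 ± 0.20, adjusted p = 0.000236) and against MetR 4.85-fold (2.22 ± 0.20, adjusted p = 0.000112). TGF-β against control gave -0.29 (95% interval -0.75 to 0.17, adjusted p = 0.281) and MetR against TGF-β 0.03 (-0.42 to 0.49, adjusted p = 0.895). For MetR against control the value was -0.25 (adjusted p = 0.302), and without MetR replicate 2 it was -0.55 and passed (adjusted p = 0.0183).

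Bmp4, the ligand with the highest FPKM of the 3 in all but the siHoxc8 libraries, was at 73.3 and 76.4 FPKM in control, 63.4 and 73.4 with TGF-β, 105 and 57.6 with MetR, and 28.7 and 29.7 with siHoxc8. Only the siHoxc8 libraries lay below the rest. Bmp4 fell 2.34-fold with siHoxc8 against TGF-β (-1.20 ± 0.24, adjusted p = 0.00619), 2.56-fold against control (-1.33 ± 0.24, adjusted p = 0.00341) and 2.78-fold against MetR (-1.38 ± 0.24, adjusted p = 0.00236). TGF-β against control gave -0.13 (95% interval -0.70 to 0.43, adjusted p = 0.694). The MetR libraries fell on both sides of the TGF-β and control libraries, and the sign turned with the library kept. Against TGF-β the value was 0.19 (adjusted p = 0.538), 0.62 without MetR replicate 2 (adjusted p = 0.00395) and -0.24 without MetR replicate 1 (adjusted p = 0.0886). Against control it was 0.06 (adjusted p = 0.858), 0.49 without MetR replicate 2 (adjusted p = 0.00842) and -0.37 without MetR replicate 1 (adjusted p = 0.0203).

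Bmp6, a ligand known for the control of iron balance, was at 14.99 and 16.4 FPKM in control, 40.9 and 30.2 with TGF-β, 27.4 and 14.4 with MetR, and 3.61 and 4.34 with siHoxc8. The TGF-β libraries were highest, the siHoxc8 libraries lowest, and the MetR libraries overlapped control. Bmp6 rose with TGF-β (1.12 ± 0.28, adjusted p = 0.0164), a call lost on leaving out control replicate 1 (adjusted p = 0.0909), control replicate 2 (0.0669) or replicate 1 of TGF-β (0.1004). Knockdown lowered it 8.94-fold against TGF-β (-2.86 ± 0.28, adjusted p = 0.000258), 3.95-fold against control (-1.75 ± 0.28, adjusted p = 0.00178) and 5.27-fold against MetR (-2.08 ± 0.28, adjusted p = 0.000649). The 1.70-fold fall with MetR against TGF-β (-0.79 ± 0.28, adjusted p = 0.0436) was lost when any 1 library other than MetR replicate 1 was left out, with adjusted p from 0.0607 to 0.221. MetR against control gave 0.33 (adjusted p = 0.336), which passed at 0.77 without MetR replicate 2 (adjusted p = 0.0148).

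Summed over these 3 ligands, FPKM was 105 and 107 in control, 115.5 and 117 with TGF-β, 143 and 88.0 with MetR, and 96.4 and 97.2 with siHoxc8. The sum stayed between 88.0 and 143 FPKM, and its makeup differed between groups. Bmp4 held 69.8% and 71.3% of the sum in control, 54.9% and 62.5% with TGF-β, 73.6% and 65.5% with MetR, and 29.8% and 30.6% with siHoxc8. Bmp2 held 15.9% and 13.4%, 9.76% and 11.8%, 7.19% and 18.1%, and 66.5% and 64.9% in the same order. Knockdown libraries thus had Bmp2 as the leading ligand transcript, and the 6 other libraries had Bmp4. The share of Bmp6 was highest with TGF-β, at 35.4% and 25.7%, and lowest with siHoxc8, at 3.74% and 4.47%.

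Grem1, which encodes the BMP antagonist gremlin 1, had the highest single value of the 10 genes. It was at 212 and 186 FPKM in control, 34.9 and 39.5 with TGF-β, 100.1 and 64.7 with MetR, and 62.1 and 57.3 with siHoxc8. No group overlapped another. Grem1 fell with TGF-β by 2.39 on the log2 scale (SE 0.19, adjusted p = 0.000179). Against TGF-β it rose 2.21-fold with MetR (1.10 ± 0.19, adjusted p = 0.00257) and 1.60-fold with siHoxc8 (0.67 ± 0.19, adjusted p = 0.0259). Both stayed below control, by 2.41-fold with MetR (-1.29 ± 0.19, adjusted p = 0.000968) and 3.33-fold with siHoxc8 (-1.72 ± 0.19, adjusted p = 0.000387). The rise with siHoxc8 was lost under median ratio rescaling (0.50, adjusted p = 0.0855), under quantile normalization (0.54, adjusted p = 0.0914), with no filter on low values (adjusted p = 0.0636) and without TGF-β replicate 1 (0.129), TGF-β replicate 2 (0.0659), siHoxc8 replicate 1 (0.124) or siHoxc8 replicate 2 (0.0776). siHoxc8 against MetR gave -0.43 (adjusted p = 0.0975), and without MetR replicate 2 it was -0.74 (adjusted p = 0.00279).

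Set against the summed FPKM of the 3 BMP ligand genes, Grem1 stood at a ratio of 2.02 and 1.74 in control, 0.303 and 0.336 with TGF-β, 0.701 and 0.736 with MetR, and 0.644 and 0.590 with siHoxc8. Control cells thus held more Grem1 transcript per length than summed transcript of these 3 ligands, and the TGF-β libraries had the lowest ratio. Other antagonist genes are not in this ratio. Among them, Nbl1 had means of 180 FPKM in control, 111 with TGF-β, 55.7 with MetR and 29.8 with siHoxc8. The ratio was not tested.

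Inhba encodes the inhibin βA subunit, whose dimer is activin A. It was at 18.1 and 17.7 FPKM in control, 41.0 and 29.5 with TGF-β, 12.8 and 11.5 with MetR, and 31.1 and 42.5 with siHoxc8. The TGF-β and siHoxc8 libraries overlapped, and both groups were above control and MetR. Inhba rose with TGF-β (0.92 ± 0.19, adjusted p = 0.00788), a call that missed the threshold without control replicate 2 (adjusted p = 0.0508). MetR lowered it 2.90-fold against TGF-β (-1.45 ± 0.19, adjusted p = 0.000739). The difference between siHoxc8 and TGF-β was 0.06 (95% interval -0.38 to 0.50, adjusted p = 0.816). Directly compared, Inhba was 3.03-fold higher with siHoxc8 than with MetR (1.51 ± 0.19, adjusted p = 0.000500), and 2.06-fold higher with siHoxc8 than in control (0.98 ± 0.19, adjusted p = 0.00425). MetR was below control by 1.47-fold (-0.52 ± 0.19, adjusted p = 0.0463), a call lost under 9 of the 18 alternatives, among them leaving out control replicate 1 (adjusted p = 0.153), control replicate 2 (0.136), MetR replicate 1 (0.0676) or MetR replicate 2 (0.147) and the replicate block (0.0558).

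The other main activin subunit gene, Inhbb (βB), is not among the 10 and its values ran differently. It lay from 30.5 to 30.8 FPKM in control, 6.65 to 7.55 with TGF-β, 2.99 to 3.21 with MetR, and 1.78 to 2.16 with siHoxc8. It fell with TGF-β (-1.97 ± 0.12) and fell further with MetR (-0.98 ± 0.12) and with siHoxc8 (-1.45 ± 0.12), and these 3 calls were kept under all 18 alternatives. The ratio of Inhba to Inhbb FPKM was 0.592 and 0.575 in control, 5.43 and 4.43 with TGF-β, 3.98 and 3.85 with MetR, and 14.4 and 23.8 with siHoxc8. Control cells were the only group with more Inhbb than Inhba transcript per length.

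Fst encodes follistatin, the secreted protein that wraps and neutralises activin. It was at 6.10 and 5.14 FPKM in control, 42.3 and 43.6 with TGF-β, 29.4 and 19.3 with MetR, and 8.32 and 8.44 with siHoxc8. The 4 groups did not overlap, and TGF-β was highest. The rise with TGF-β was 2.73 ± 0.18 on the log2 scale (adjusted p = 8.99e-05). MetR lowered Fst 1.77-fold against TGF-β (-0.83 ± 0.18, adjusted p = 0.00716) and left it 4.32-fold above control (1.91 ± 0.18, adjusted p = 0.000135). Knockdown lowered it 5.13-fold against TGF-β (-2.23 ± 0.18, adjusted p = 0.000137). Against control the siHoxc8 value was 0.51 ± 0.18 (adjusted p = 0.0540), which passed under 9 of the 18 alternatives, among them median ratio rescaling (adjusted p = 0.0476), quantile normalization (0.0261), the replicate block (0.0414) and leaving out MetR replicate 1 (0.00417) or MetR replicate 2 (0.00403). siHoxc8 lay below MetR by 2.90-fold (-1.40 ± 0.18, adjusted p = 0.000620).

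Follistatin and activin A transcripts therefore stood in different proportions. The ratio of Fst to Inhba FPKM was 0.338 and 0.291 in control, 1.03 and 1.48 with TGF-β, 2.298 and 1.67 with MetR, and 0.268 and 0.199 with siHoxc8. Fst exceeded Inhba in all 4 libraries with TGF-β or MetR and in none of the others, and the ratio itself was not tested.

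The 4 Id genes differed in their calls, and the stretches at their annotated starts are shown side by side because Id2 and Id4 fell with siHoxc8 while Id1 and Id3 were not called. Each runs 5′ to 3′ on the gene's strand, from 250 bases before the start to 50 after, from RefSeq's GRCr8 assembly, while the submitters' notes name rn6. They lie at chr3:161671314-161671613 on the plus strand (Id1), chr6:47470946-47471245 on the minus strand (Id2), chr5:153656041-153656340 on the plus strand (Id3) and chr17:16598244-16598543 on the minus strand (Id4). Capitals mark matches, on either strand, to GGCGCC (letters of the GC-rich BMP response element), CAGAC (the Smad box), TGACG (the core of the cAMP response element), CACGTG (an E-box), TAAT (a homeodomain core), TATAAA and CCAAT.
Id1: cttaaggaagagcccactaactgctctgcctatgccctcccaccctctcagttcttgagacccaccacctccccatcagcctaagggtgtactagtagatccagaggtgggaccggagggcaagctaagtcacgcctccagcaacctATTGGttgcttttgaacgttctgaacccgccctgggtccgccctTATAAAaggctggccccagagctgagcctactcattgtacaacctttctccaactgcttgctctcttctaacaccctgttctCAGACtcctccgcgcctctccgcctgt
Id2: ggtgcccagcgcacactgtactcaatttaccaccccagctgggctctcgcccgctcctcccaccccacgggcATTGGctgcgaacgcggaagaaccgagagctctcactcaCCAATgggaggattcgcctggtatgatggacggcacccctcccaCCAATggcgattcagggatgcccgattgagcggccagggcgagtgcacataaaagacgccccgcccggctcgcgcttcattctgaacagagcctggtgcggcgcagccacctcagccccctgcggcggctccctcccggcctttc
Id3: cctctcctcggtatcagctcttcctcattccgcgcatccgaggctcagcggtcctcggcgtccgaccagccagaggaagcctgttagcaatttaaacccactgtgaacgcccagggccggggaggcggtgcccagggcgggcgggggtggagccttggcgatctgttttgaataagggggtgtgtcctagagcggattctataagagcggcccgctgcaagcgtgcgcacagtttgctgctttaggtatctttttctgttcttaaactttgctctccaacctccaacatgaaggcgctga
Id4: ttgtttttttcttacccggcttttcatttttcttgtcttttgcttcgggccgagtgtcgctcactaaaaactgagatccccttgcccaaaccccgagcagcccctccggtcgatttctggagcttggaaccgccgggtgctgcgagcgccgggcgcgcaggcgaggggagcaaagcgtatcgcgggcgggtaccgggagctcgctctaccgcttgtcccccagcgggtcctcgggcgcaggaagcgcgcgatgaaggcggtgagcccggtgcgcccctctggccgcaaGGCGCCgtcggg
Counted from the start as 0, the Id1 window held the Smad box from 23 to 27, TATAAA from -59 to -54 and a reversed CCAAT box from -103 to -99. Id2 held the CCAAT box, on either strand, at -178, -139 and -95. Id4 held GGCGCC from 38 to 43, and the Id3 window held none of the 7 motifs. The Id4 bases from the annotated start open with ATG, a start codon, and its reading frame runs through the GGCGCC match. That match may thus lie in coding sequence, and the Id4 window may not be its promoter. Of all 33469 promoter windows of the same length, 11.0% held GGCGCC, 50.1% CAGAC, 21.2% TGACG, 6.42% CACGTG, 60.6% TAAT, 14.2% TATAAA and 37.5% CCAAT. The GC content was 55.7% (Id1), 65.3% (Id2), 58% (Id3) and 65% (Id4), with a median of 51.7% over all windows. These matches are letters in a window and not sites of binding. Bases farther than 250 before or 50 after the start were not searched, so a motif absent here may lie outside the window.

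Id3 was the most abundant Id transcript in every library. It was at 146 and 141 FPKM in control, 127 and 170.4 with TGF-β, 116 and 86.6 with MetR, and 127 and 137 with siHoxc8. The MetR libraries were the lowest, and the other groups lay close to or over each other. Id3 fell 1.47-fold with MetR against TGF-β (-0.55 ± 0.17, adjusted p = 0.0297) and 1.42-fold against control (-0.52 ± 0.17, adjusted p = 0.0355). Each of these calls was lost under 7 of the 18 alternatives. Without MetR replicate 2 they stood at -0.35 (adjusted p = 0.128) and -0.31 (adjusted p = 0.158). The call against TGF-β was also lost without TGF-β replicate 2 (adjusted p = 0.165) or without either control replicate (0.0535 each). That against control was also lost without control replicate 1 (0.137), control replicate 2 (0.109) or either siHoxc8 replicate (0.0570 and 0.0569). Neither TGF-β against control (0.03, 95% interval -0.37 to 0.44, adjusted p = 0.889) nor siHoxc8 against TGF-β (-0.16, -0.57 to 0.25, adjusted p = 0.485) passed. siHoxc8 against MetR gave 0.39 (adjusted p = 0.0933), which passed at 0.60 without MetR replicate 1 (adjusted p = 0.0222).

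Id1, the Id gene most often read as a measure of BMP signalling, was at 67.9 and 84.6 FPKM in control, 49.2 and 57.4 with TGF-β, 53.6 and 30.4 with MetR, and 72.2 and 73.5 with siHoxc8. The siHoxc8 libraries lay between the 2 control libraries, and the MetR libraries lay on both sides of a TGF-β library. No main comparison was called for Id1. Under median ratio rescaling, TGF-β against control gave -0.28 and siHoxc8 against TGF-β gave 0.28 for Id1, and neither passed. Quantile normalization gave -0.49 and 0.34 for the same comparisons, and again neither passed. The values as deposited, which follow, were larger in size. TGF-β against control gave -0.50 (95% interval -1.07 to 0.06, adjusted p = 0.137), and it passed without MetR replicate 1 or MetR replicate 2 (adjusted p = 0.0158 each), with only the compared groups in the fit (0.0389) and with library weights (0.0495). siHoxc8 against TGF-β gave 0.45 (-0.12 to 1.01, adjusted p = 0.173), and it passed without either MetR replicate (0.0218 each) and with only the compared groups (0.0183). MetR against TGF-β gave -0.39 (-0.95 to 0.18, adjusted p = 0.212), which was -0.78 without MetR replicate 1 (adjusted p = 0.00495) and 0.01 without MetR replicate 2 (adjusted p = 0.958). MetR was 1.82-fold below control (-0.89 ± 0.24, adjusted p = 0.0153), lost without control replicate 2 (0.0962) or with only the compared groups (0.0621). siHoxc8 was 1.73-fold above MetR (0.83 ± 0.24, adjusted p = 0.0214), lost with no filter on low values (0.0556), with only the compared groups (0.0668) and without siHoxc8 replicate 1 (0.0780) or siHoxc8 replicate 2 (0.0825).

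Id2 was at 38.0 and 35.5 FPKM in control, 37.9 and 46.1 with TGF-β, 17.4 and 9.17 with MetR, and 5.32 and 7.02 with siHoxc8. Control and TGF-β overlapped, MetR was lower and siHoxc8 lowest. The difference of TGF-β from control was 0.18 (95% interval -0.43 to 0.80, adjusted p = 0.614). Id2 fell 3.17-fold with MetR against TGF-β (-1.65 ± 0.26, adjusted p = 0.00171) and 6.81-fold with siHoxc8 (-2.59 ± 0.26, adjusted p = 0.000320). Against control it fell 2.77-fold (-1.46 ± 0.26, adjusted p = 0.00239) and 5.96-fold (-2.41 ± 0.26, adjusted p = 0.000348). All 4 calls were kept under the 18 alternatives. siHoxc8 was below MetR by 2.15-fold (-0.94 ± 0.26, adjusted p = 0.0186), a call lost without siHoxc8 replicate 1 (0.107), with only the compared groups (0.0724) and with no filter on low values (0.0502).

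Id4, the lowest of the 4 per length in every library, was at 26.4 and 24.8 FPKM in control, 11.2 and 13.6 with TGF-β, 7.90 and 7.31 with MetR, and 3.05 and 4.30 with siHoxc8. The groups came in that order with no overlap, and all 6 comparisons were called. With TGF-β, Id4 fell by 1.00 on the log2 scale (SE 0.16, adjusted p = 0.00260). Against TGF-β it fell 1.63-fold with MetR (-0.63 ± 0.16, adjusted p = 0.0116) and 3.37-fold with siHoxc8 (-1.53 ± 0.16, adjusted p = 0.000336). The MetR call was lost without TGF-β replicate 2 (adjusted p = 0.0739) and with library weights (0.117). Against control the siHoxc8 libraries were 6.97-fold lower (-2.52 ± 0.16, adjusted p = 3.40e-05) and the MetR libraries 3.37-fold lower (-1.63 ± 0.16, adjusted p = 0.000135). siHoxc8 lay 2.07-fold below MetR (-0.89 ± 0.16, adjusted p = 0.00242).

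The summed FPKM of the 4 Id genes was 278 and 286 in control, 226 and 287 with TGF-β, 194 and 133 with MetR, and 207 and 221 with siHoxc8. Id2 held 13.6% and 12.4% of it in control, 16.8% and 16.0% with TGF-β, 8.93% and 6.87% with MetR, and 2.57% and 3.17% with siHoxc8. Id4 held 9.47% and 8.67%, 4.96% and 4.72%, 4.06% and 5.48%, and 1.47% and 1.94% in the same order. Id3 held 49.4% to 64.8% in every library, so most Id transcript per length came from it throughout. The share of Id1 was 34.8% and 33.2% with siHoxc8 and 20.0% to 29.6% in the other libraries.

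**Figure D3:**
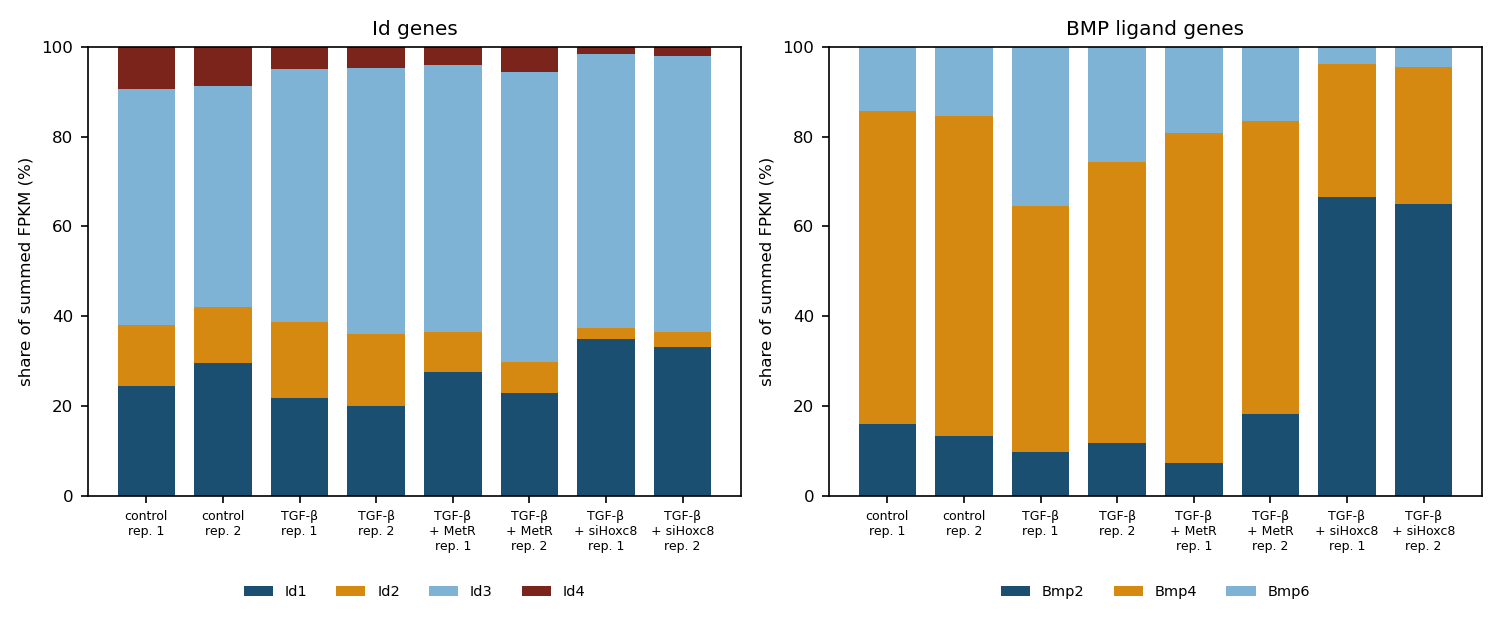
Share (%) of the summed FPKM of the 4 Id genes (left) and of the 3 BMP ligand genes (right) held by each gene in each of the 8 libraries. Id2 falls to 2.57% and 3.17% of the Id sum with siHoxc8, and Bmp2 holds 66.5% and 64.9% of the BMP sum there.

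Genes whose pattern was most like that of Id1 over the 8 libraries, among 8426 other tested genes with a mean of at least 5 FPKM, were B4galt2 (Pearson r of log2(FPKM + 1) 0.969), Gpsm1 (0.967), Slc41a3 (0.958), Tulp3 (0.957) and Ccdc167 (0.953). For Inhba they were Whrn (0.968), Bdh1 (0.967), Tmem108 (0.965), Prkd1 (0.959) and Slc16a4 (0.958). The 8 points of each correlation fall into 4 groups and share their libraries, so r is a description.

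The set of 3 comparisons not centred on TGF-β alone gave these counts. Against control, MetR raised Fst and lowered Grem1, Inhba and the 4 Id genes, 7 of 10 beside 57.3% of all genes, 28% raised and 29.3% lowered. siHoxc8 raised Bmp2 and Inhba and lowered Bmp4, Bmp6, Grem1, Id2 and Id4 against control, 7 of 10 beside 48.7%, 21.7% raised and 27% lowered. Between the combined treatments, siHoxc8 was above MetR in Id1, Bmp2 and Inhba and below it in Id2, Id4, Bmp4, Bmp6 and Fst, 8 of 10 beside 54.2%, 24.9% raised and 29.3% lowered. Medians over the 10 genes were -0.52, -0.73 and -0.66, against -0.01, -0.05 and -0.06 over all genes.

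Around the 10 genes, 6 lists of other pathway genes were read for how many members passed the same test, beside the shares of all tested genes called (38.9% with TGF-β, 53.9% with MetR and 43.8% with siHoxc8). Among 23 other ligand genes of the BMP, GDF and activin group, 4 were tested, 7 were listed at 0 in every library, and the rest stayed under the filter. With TGF-β, 1 was raised (Gdf11, which acts through activin receptors, 0.94 ± 0.16) and 1 lowered (Inhbb). With MetR, Inhbb alone was called. With siHoxc8, Inhbe, the βE subunit gene, rose by 2.03 ± 0.16 from a mean of 0.429 to 4.81 FPKM and Inhbb fell. No BMP ligand gene other than the 3 described was above the filter.

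Of 18 extracellular antagonists and modulators, 10 were tested. TGF-β raised 2 and lowered 4, with Bmper (a chordin-like BMP binder) at 1.12 ± 0.16, Chrd (chordin, which traps BMPs) at -0.97 ± 0.16 and Crim1 (a transmembrane BMP binder) at -0.85 ± 0.12. Chrdl2, listed at 0 in control, reached 1.02 FPKM. With MetR 1 rose and 4 fell: Chrd rose (0.95 ± 0.16), and Bmper (-1.64 ± 0.16), Fstl1 (-1.03 ± 0.21) and Nbl1 (-0.98 ± 0.11) were among those that fell. Knockdown raised 2 and lowered 5. The totals of 6, 5 and 7 of 10 stand beside 38.9%, 53.9% and 43.8% of all genes, so the MetR share is near the background. Crim1 fell most with siHoxc8, from 47.8 to 61.1 FPKM with TGF-β down to 7.03 to 7.45 (-2.74 ± 0.12). Next with siHoxc8 came Nbl1, the BMP antagonist DAN (-1.86 ± 0.11), and Bmper (-1.10 ± 0.16), while Chrdl2 rose (1.22 ± 0.15). The list medians were 0.07, -0.17 and -0.54, against -0.19, 0.18 and 0.13 over all genes.

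Receptor and coreceptor genes (11 of 14 tested) gave 2 raised and 5 lowered with TGF-β, 7 and 0 with MetR, and 7 and 2 with siHoxc8. Over all genes, 10.3% were raised and 28.6% lowered with TGF-β, 34.8% and 19% with MetR, and 28.1% and 15.7% with siHoxc8. Bmpr1b, a BMP type I receptor, was near 0 in control (mean 0.0885 FPKM), at 0.942 to 1.06 FPKM with TGF-β, 17.7 to 19.5 with MetR, and 3.51 to 3.85 with siHoxc8. Its log2 fold changes were 0.88 ± 0.13 with TGF-β, 3.29 ± 0.13 with MetR and 1.23 ± 0.13 with siHoxc8. With TGF-β the BMP coreceptors Rgma (-1.20 ± 0.24) and Rgmb (-0.81 ± 0.09) and the activin type II receptor Acvr2a (-0.85 ± 0.15) fell. With MetR the decoy receptor Bambi (1.18 ± 0.14), Acvr2a (0.71 ± 0.15) and Rgmb (0.68 ± 0.09) rose. With siHoxc8 Rgma (1.30 ± 0.24) and the activin type I receptor Acvr1b (0.88 ± 0.10) rose, and endoglin (Eng, -0.88 ± 0.11) fell. Medians were 0.09, 0.54 and 0.43, against -0.19, 0.18 and 0.13 over all genes.

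The Smads and their inhibitors (11 of 13 tested) gave 3 raised and 2 lowered with TGF-β, 6 and 1 with MetR, and 3 and 1 with siHoxc8. The totals of 5, 7 and 4 of 11 stand beside 38.9%, 53.9% and 43.8% of all genes, and the siHoxc8 share lies below the background. TGF-β raised Skil (1.36 ± 0.13), a repressor of Smads, and the inhibitory Smad7 (1.02 ± 0.11), and lowered Smad3 (-1.17 ± 0.11). The BMP-responsive Smad1 was at 0.00 ± 0.09 there (adjusted p = 0.977), and rose with MetR (0.93 ± 0.09) and with siHoxc8 (1.11 ± 0.09). MetR also raised Smad5 (0.84 ± 0.12) and Smad3 (0.80 ± 0.11). Smad6, the inhibitor of BMP Smads and itself a known BMP target, fell with MetR (-1.22 ± 0.39) with its 2 MetR libraries at 5.34 and 16.5 FPKM, a call lost under 6 of 18 alternatives, among them leaving out either control or either TGF-β replicate (adjusted p up to 0.124). Smurf1 with TGF-β (0.53 ± 0.13) was lost without either control replicate or without TGF-β replicate 1 (up to 0.0867). With siHoxc8, Smad3 (-0.55 ± 0.11) was lost without siHoxc8 replicate 2 (0.0563), and the rises of Smurf2 (0.42 ± 0.12) and Ski (0.39 ± 0.12) were lost under both rescalings and without either control replicate, either siHoxc8 replicate or TGF-β replicate 2 (up to 0.153 and 0.189). Medians were -0.07, 0.52 and -0.02, against -0.19, 0.18 and 0.13 over all genes.

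Of 16 BMP target genes other than Id, 9 were tested, with 2 raised and 1 lowered by TGF-β, 3 and 1 with MetR, and 3 and 1 with siHoxc8. The totals of 3, 4 and 4 of 9 are no more than near the background of 38.9%, 53.9% and 43.8% of all genes. TGF-β raised Msx1 (0.60 ± 0.11). Runx2, a bone lineage factor, rose with MetR (1.54 ± 0.14) and with siHoxc8 (1.35 ± 0.14), as did Klf10 (1.43 ± 0.24 and 1.19 ± 0.24). Gata2 rose with siHoxc8 (0.98 ± 0.16) and Tbx3 with MetR (0.77 ± 0.15). The rise of Tbx3 with TGF-β (0.71 ± 0.15) was lost without either control replicate or without TGF-β replicate 1 (up to 0.0702). Atoh8 fell with TGF-β (-1.30 ± 0.32) and with MetR (-1.22 ± 0.32), the first lost without any 1 of the control or TGF-β libraries (up to 0.102) and the second without TGF-β replicate 2 (0.0933). Snai2 fell with siHoxc8 (-0.67 ± 0.22), lost without any 1 of the control, TGF-β or siHoxc8 libraries (up to 0.193). Medians of the list were -0.17, 0.37 and 0.18, against -0.19, 0.18 and 0.13 over all genes.

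Among 10 genes of bHLH factors that Id proteins can bind or neighbour, 7 were tested. TGF-β raised 2 and lowered 2, MetR raised 4 and lowered 1, and siHoxc8 raised 4 and lowered 1. The totals of 4, 5 and 5 of 7 stand beside 38.9%, 53.9% and 43.8% of all genes. Twist2 fell with TGF-β (-1.50 ± 0.11) and rose with siHoxc8 (0.60 ± 0.11). Twist1 rose with MetR (0.59 ± 0.10), and Tcf3, which encodes the E proteins E12 and E47, rose with siHoxc8 (0.80 ± 0.10). Calls lost when a library was left out were Tcf3 (-0.45 ± 0.10) and Twist1 (0.42 ± 0.10) with TGF-β without either control replicate, Twist1 also without TGF-β replicate 2, and Tcf4 (0.41 ± 0.12) without either control replicate, TGF-β replicate 1 or either siHoxc8 replicate (adjusted p up to 0.0865 for Twist1 and 0.164 for Tcf4), with Tcf3 also lost under median ratio rescaling (0.154). Scx with MetR (0.71 ± 0.22) was lost without either TGF-β replicate or MetR replicate 1 and under both rescalings (up to 0.127). With siHoxc8, Twist1 (0.44 ± 0.10) was lost without either siHoxc8 replicate (up to 0.0741), and Tcf12 (0.37 ± 0.13) was lost under 11 of 18 alternatives. These were each control replicate, each siHoxc8 replicate or TGF-β replicate 2 left out, both rescalings, the replicate block, a pseudocount of 5, no filter on low values and only the compared groups (up to 0.217). Tcf4 (-0.56 ± 0.12) and Tcf3 (0.51 ± 0.10) with MetR were lost with only the compared groups (0.0503) and under median ratio rescaling (0.0529). Medians were -0.19, 0.46 and 0.37, against -0.19, 0.18 and 0.13 over all genes.

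**Figure D4:**
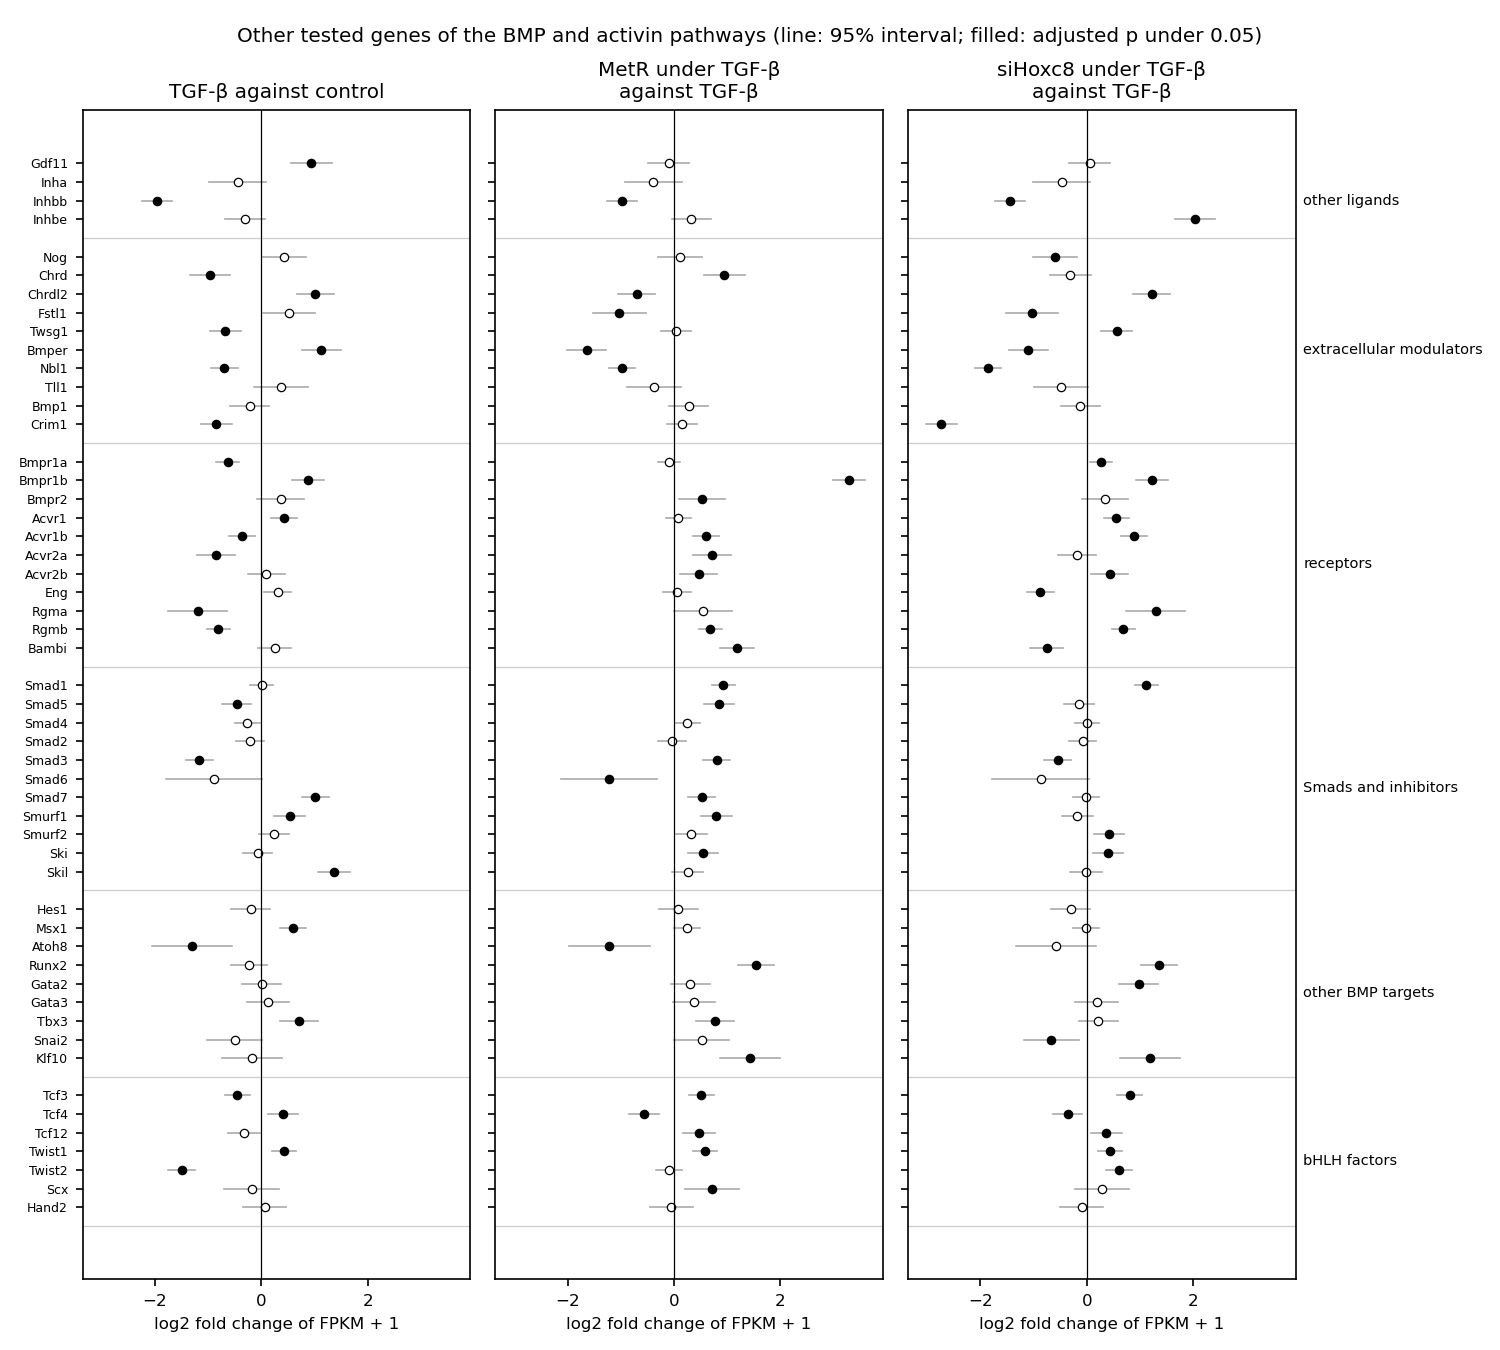
Log2 fold change of FPKM + 1 of the tested genes of the 6 lists in the 3 comparisons, with lines for the 95% interval and filled points where the limma adjusted p is under 0.05. Bmpr1b lies farthest to the right, at 3.29 with MetR, and Crim1 farthest to the left, at -2.74 with siHoxc8.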

How the data were processed

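RNA-seq of polyadenylated RNA was measured in 8 libraries, grouped by their sample titles. The authors deposited 1 table of FPKM values for all 8, per the labels. The tools named are featureCounts, Trim Galore, deepTools and Bowtie2 2.3.5.1, with the build rn6, per the submitters' processing notes. Their roles, the annotation and whether strand was used are not given in the sources held here, so a gene and an antisense neighbour cannot be told apart. The FPKM steps came out as whole reads (within 0.02 reads) for 100% of the 19435 genes listed above 0, which served for depth and for a limma-voom alternative.

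Values were compared as log2(FPKM + 1), a scale that understates the change of low genes, with limma 3.58.1 in R 4.3.3 (mean-variance trend, 1 coefficient per group, all 8 libraries, 4 residual and 3.47 prior degrees of freedom). Groups share 1 spread because 2 libraries a group leave too few degrees of freedom. Each SE therefore draws on all groups and not only on the 2 compared. As MetR replicates stood farther apart (0.307 against 0.177 to 0.223), it can understate the error of MetR comparisons and overstate that of others. Two-sided p-values were adjusted by Benjamini-Hochberg over 12315 genes in each of 6 comparisons, with a threshold of 0.05. Folds are ratios of mean FPKM. The fit was tried on simulated data in which every group had the same spread for a gene. That setting cannot show how the wider spread of MetR bears on the calls. A total of 18 alternatives were run (pseudocounts of 0.1 and 5, no filter or a mean of at least 5 FPKM, median ratio rescaling, quantile normalization, only the compared groups, library weights, limma-voom, a replicate block, and each library left out).

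The 10 genes and the lists were chosen with earlier results of these data known. All 10 are named, with Hoxc8 and Acta2, and of each list up to 4 called genes per main comparison, by size of change, if the higher group mean reached 1 FPKM. The homeodomain, TATA and CCAAT motifs were added after values were seen, and a planned comparison of Id proteins was not run. Promoter windows came from RefSeq (GRCr8) by symbol, with 8 of 10 genes matched.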

Additional observations from a re-analysis of the deposited data

How the results depend on the processing

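Of 41 calls of the 10 genes in 6 comparisons, 30 were kept under all 18 alternatives, 11 were lost under at least 1, and 0 reversed as calls. Of 1080 results under alternatives, 981 kept direction and side of the threshold, 55 fell short of it and 23 newly passed with the same sign. The remaining 21 changed sign, on whichever side of the threshold. Bmp4 for MetR against control without MetR replicate 1 (-0.37) is counted among these and not among those that newly passed. Where leaving out a library leaves 1 in a group, that library is assumed to vary like the other groups. With each library left out in turn, the number of the 10 genes called ran from 3 to 6 for TGF-β against control (5 with all libraries, 3 without control replicate 2), 4 to 8 for MetR against TGF-β (7, and 4 without TGF-β replicate 2), 6 to 8 for siHoxc8 against TGF-β (7), 4 to 8 for MetR against control (7, and 4 without control replicate 2), 7 to 8 for siHoxc8 against control (7) and 6 to 9 for siHoxc8 against MetR (8). Library weights gave 4 for MetR against TGF-β. The share of all genes called with a library left out, library weights or the replicate block was not set beside these counts. Under median ratio rescaling and quantile normalization the Smad list had 2 calls in place of 4 with siHoxc8. Of all 12315 genes, siHoxc8 then raised 2574 and lowered 2743 under the first, and 2723 and 2677 under the second. As deposited these were 3460 and 1934. Under median ratio rescaling the bHLH list had 2 calls in place of 5 with MetR. Of all genes, MetR then raised 3136 and lowered 3281, in place of 4289 and 2345. The cause was not tested.

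Sign changes, all of values that were not called in the main fit, were as follows. Median ratio rescaling gave Id1 0.0058 for siHoxc8 against control, Bmp4 0.10 for TGF-β against control and -0.028 for MetR against TGF-β, Bmp2 -0.17 for MetR against TGF-β and Inhba -0.10 for siHoxc8 against TGF-β. Quantile normalization gave Id3 -0.0317 for TGF-β against control, Bmp2 -0.23 for MetR against TGF-β, Bmp4 -0.0481 for MetR against control and Inhba -0.0719 for siHoxc8 against TGF-β. With each library left out in turn, these values ranged over both signs: for MetR against TGF-β, Id1 from -0.785 to 0.0116, Bmp2 from -0.26 to 0.329 and Bmp4 from -0.24 to 0.617; for MetR against control, Bmp2 from -0.547 to 0.0411, Bmp4 from -0.372 to 0.485 and Bmp6 from -0.11 to 0.77; for siHoxc8 against TGF-β, Id3 from -0.371 to 0.0482 and Inhba from -0.171 to 0.294; for siHoxc8 against control, Id1 from -0.214 to 0.10; and for TGF-β against control, Id3 from -0.175 to 0.244. The ends of the MetR ranges came from leaving out the 2 MetR libraries, those of Id3 and Inhba from the 2 TGF-β libraries and those of Id1 against control from the 2 control libraries. The cause was not tested.

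The replicate numbers were not used to pair the samples in the main fit. Correlations of replicate 1 deviations between groups ran from -0.02 to 0.20, with only TGF-β and MetR over 0.1. Under a replicate block 5, 7, 7, 6, 8 and 8 of the 10 genes were called in the 6 comparisons in the order above, with Inhba lost for MetR against control (adjusted p = 0.0558) and Fst gained for siHoxc8 against control (adjusted p = 0.0414). Of 64 calls of list genes named by the rule, 47 were kept under all alternatives that could test them, which were added after the values were seen. With 2 libraries a group, a value that missed the threshold does not show that groups were alike.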
